A study of Mus musculus with 6 samples.

Results

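Pou5f1, Sox2 and Klf4, which encode the reprogramming factors OCT4, SOX2 and KLF4, and the MYC family genes Myc and Mycn were followed in mouse embryonic fibroblasts (strain B6CBAF1/J) on the way to pluripotency. They were taken as the probe sets whose platform annotation names exactly 1 of these 5 genes, out of 18193 genes named in that way. This gave 8 of 45101 probe sets: 1 each for Pou5f1, Sox2 and Myc, 2 for Klf4 and 3 for Mycn. The fibroblasts carried SOX2, KLF4 and the OCT4 variant named 5R, written O(5R)SK, or SOX2, KLF4 and wild-type OCT4, written O(WT)SK. SOX2 and KLF4 are thus common to all samples, as is a stem cell culture medium with fetal bovine serum and LIF. Each combination was sampled on days 3, 5 and 7 with 1 Affymetrix array each, 6 in all. The labels do not explain 5R, name no delivered MYC and do not say whether the days came from separate cultures. No day has a replicate. A p-value for combinations or days therefore rests in part on how far the difference between the combinations varied over the days of the 6 arrays. Real effects of single days and technical scatter both enter it. For slopes that part is the scatter about a line for each combination. The limma fits used here also pull each spread toward 1 estimated over all tested probe sets. This prior has 2.52 degrees of freedom, or 2.23 for slopes, beside 2 from the probe set itself.

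OCT4 is a POU-domain transcription factor and SOX2 an HMG-box factor, and they bind side by side at enhancers of pluripotency genes. KLF4 is a zinc finger factor of GC-rich and CACCC-type DNA that is also known from epithelia. The proteins of Myc and Mycn pair with MAX on E-boxes and are known for driving growth, ribosome production and the cell cycle. An array can separate a delivered gene from the cell's own copy only where its probes cover a stretch that 1 of them lacks. Whether these probe sets read delivered copies was not determined here.

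The native promoters of Pou5f1 and Sox2 are shown because Pou5f1 carried the main difference between the combinations and Sox2 gave almost no signal. The 250 bases before the gene start were read from RefSeq (GRCm38.p6, plus strand), at chr17:35505782-35506031 for Pou5f1 and chr3:34649745-34649994 for Sox2. Capitals mark matches, on either strand, to the octamer ATGCAAAT, the SOX core ACAAAG, the E-box CACGTG or the CACCC box.
Pou5f1: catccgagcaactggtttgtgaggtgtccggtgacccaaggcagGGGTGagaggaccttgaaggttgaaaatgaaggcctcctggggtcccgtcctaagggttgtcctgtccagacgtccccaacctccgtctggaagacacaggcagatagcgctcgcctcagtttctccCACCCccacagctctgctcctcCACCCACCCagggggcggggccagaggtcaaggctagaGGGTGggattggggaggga
Sox2: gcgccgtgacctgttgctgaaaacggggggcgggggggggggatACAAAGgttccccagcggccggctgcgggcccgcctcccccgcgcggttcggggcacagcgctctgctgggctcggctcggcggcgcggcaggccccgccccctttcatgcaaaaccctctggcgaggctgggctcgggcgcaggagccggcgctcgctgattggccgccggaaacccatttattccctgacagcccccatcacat
The Pou5f1 window held 5 CACCC boxes, beginning at -206, -79, -57, -53 and -19 from the start, and those at -57 and -53 share 1 base. The Sox2 window held 1 SOX core, at -206. Klf4 had 1 E-box, at -182, Mycn had 1 CACCC box, at -54, and a second annotated start of Pou5f1 had no match. Of 32851 promoter windows of this length 52.0% hold a CACCC box, 16.5% a SOX core, 6.02% an E-box and 1.60% an octamer. A window counts here with 1 match or more, and the share with 5 CACCC boxes was not computed. All matches are of letters and are not binding sites.

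The deposited values are linear intensities, scaled to a 2% trimmed mean of 500. The array of O(5R)SK on day 7 was lower at its bright end: over 364 probe sets with a mean of at least 16000 its median was 19620.3, against 22041 to 23806 on the other 5 arrays. On the array of O(5R)SK on day 3 the spiked dap and thr controls had 3' to 5' ratios of 3.09 and 3.78, against 2.26 to 2.76 and 2.05 to 2.56 elsewhere. All 8 listed fibroblast markers passed the filter on low values, none was at 0, and between the combinations 5 were positive and 3 negative (median 0.01), with 0 called in limma and 1 at an unadjusted p under 0.05. Their summed intensity, 75851 to 88440 with O(5R)SK and 93051 to 103844 with O(WT)SK, is mostly that of Vim and Col1a2. Of 6 pluripotent cell markers 2 passed, Esrrb and Dppa5a, and neither was called in limma, with 0 at an unadjusted p under 0.05. The 6 summed to 99.3, 126.8 and 212.6 on days 3, 5 and 7 with O(5R)SK and to 137.7, 149.1 and 145.3 with O(WT)SK. Nanog, a core pluripotency factor, read 5 to 7.13 with O(5R)SK and 4.06 to 16.7 with O(WT)SK.

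Pou5f1 differed most between the combinations among the members that could be tested. Its probe set (1417945_at) read 4087, 4042 and 4803 on days 3, 5 and 7 with O(5R)SK, against 2290, 2292 and 2741 with O(WT)SK. All O(5R)SK arrays lay above all O(WT)SK arrays, which held for 2 of the 6 tested members, Pou5f1 and 1 Klf4 probe set, and for 5.30% of the 27002 probe sets tested. The opposite order was seen for 0 members and 4.99% of all. On the scale of log2(intensity + 16), used for every difference below, Pou5f1 was higher by 0.83, 0.81 and 0.81 on the 3 days, or 1.78-fold, 1.76-fold and 1.75-fold.

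A lead of at least 1.5-fold on all 3 days was shared by 86 probe sets (0.318%), and Pou5f1 was the only member among them. On single days such a lead was held by 3.73%, 4.70% and 9.35% of probe sets on days 3, 5 and 7, with Pou5f1 the only member each time. A deficit of that size was seen for 4.05%, 3.83% and 3.05% of probe sets on these days, and for 0 of the 6 members. Among the 86 the Pou5f1 difference varied least between days, with an SD of 0.013, against a median SD of 0.201 over all tested probe sets. Of all tested probe sets 114 (0.422%) varied less.

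In limma, fitted to all tested probe sets with combination and day as terms, the Pou5f1 difference was 0.82 (SE 0.0887, 95% interval 0.58 to 1.05, higher on 3 of 3 days). This SE and interval owe more to the prior over all probe sets than to the Pou5f1 difference itself, whose SD over days was 0.013. The size of the difference was exceeded by 228 probe sets. Its unadjusted p was 0.000427, but after adjustment over all probe sets it did not pass (limma adjusted p = 0.503). Of the 6 tested members 0 passed, and of all probe sets 0%, while 8.63% had an unadjusted p under 0.05, as had 2 members, Pou5f1 and Klf4 1417394_at. The call depends on how noise is estimated: with a trended, robust prior, which lets noise depend on brightness, Pou5f1 passed (limma adjusted p = 0.0022). Over 9 settings with all arrays its adjusted p in limma ran from 0.0022 to 0.701 and its difference from 0.78 to 0.82.

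**Figure D1:**
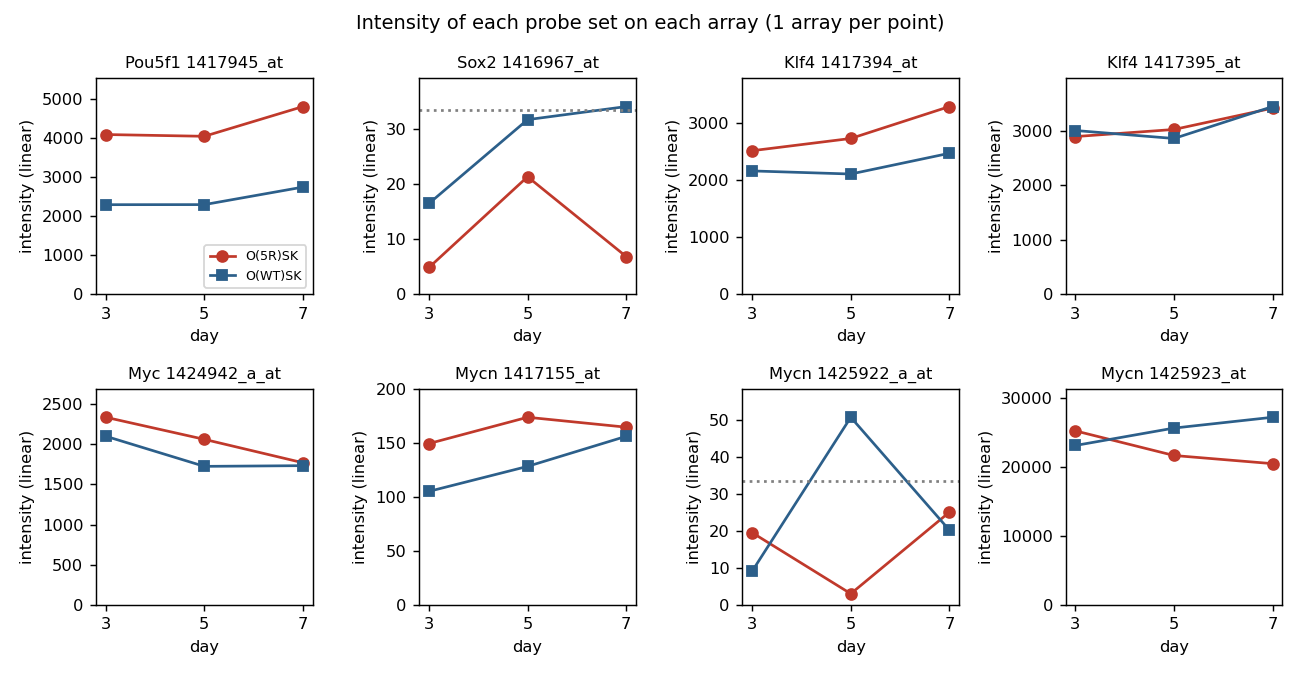
Linear intensity (y axis, from 0, its range set by panel) of each of the 8 probe sets by day (x axis), 1 array per point, with O(5R)SK as red circles and O(WT)SK as blue squares. A dotted line marks the filter intensity of 33.5 for the probe sets that did not pass it. Pou5f1 reads 4042 to 4803 with O(5R)SK and 2290 to 2741 with O(WT)SK, while the lines of Klf4 1417395_at cross.

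Pou5f1 followed nearly the same course in time with both combinations. Day 7 exceeded day 3 by 0.23 with O(5R)SK and by 0.26 with O(WT)SK. Over both the difference was 0.24 (SE 0.109, limma adjusted p = 0.263), made up of -0.01 up to day 5 and 0.25 after it. The slopes differed by -0.03 per 4 days, with a 95% interval of -0.68 to 0.63 (limma adjusted p = 0.983), which leaves room for a sizeable difference.

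The genes most like Pou5f1 over the 6 arrays were Prom1, which encodes the membrane protein prominin 1 (r = 0.993), Esco1, which encodes a cohesin acetyltransferase (r = 0.989), and the carbonic anhydrase gene Car2 (r = 0.987), among 9870 probe sets of similar spread. The arrays share combination and day, and these are Pearson correlations given as a description. Prom1 read 2012, 2174 and 2816 on days 3, 5 and 7 with O(5R)SK, against 738, 861 and 1165 with O(WT)SK. Car2 read 342, 366 and 432 with O(5R)SK, against 126, 128 and 142 with O(WT)SK. The combinations of both genes did not overlap, which follows largely from choosing them by their correlation with Pou5f1.

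Sox2 gave almost no signal, although SOX2 is a named factor of both combinations. Its probe set (1416967_at) read 4.84, 21.3 and 6.83 on days 3, 5 and 7 with O(5R)SK, against 16.5, 31.7 and 34.1 with O(WT)SK. These values sit at percentiles 10.5 to 38.1 of brightness, with a mean under the filter, and the combinations overlapped. The differences by day were -0.64, -0.35 and -1.13. In a fit without the filter the mean was -0.71 (SE 0.195, limma adjusted p = 0.71). At this brightness the size depends on the added 16, and transcript levels cannot be ordered. The correlations with Qk and Bmper (r = 0.989 each) and Zfp352 (r = 0.986), among 8054 probe sets, rest on the same low readings.

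The 2 probe sets of Klf4 gave different answers. The first (1417394_at) read 2508, 2722 and 3280 on days 3, 5 and 7 with O(5R)SK, against 2154, 2100 and 2463 with O(WT)SK, with no overlap. The second (1417395_at) read 2897, 3027 and 3420 with O(5R)SK, against 3008, 2861 and 3449 with O(WT)SK, and the combinations overlapped. For the first the difference was 0.33 (SE 0.0969, 95% interval 0.08 to 0.59, higher on 3 of 3 days, limma adjusted p = 0.540). For the second it was 0.00 (95% interval -0.24 to 0.25, higher on 1 of 3 days, limma adjusted p = 0.989), with a sign that turned under a common median of the arrays (-0.0300).

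Their ratio within an array is free of array scaling. The log2 ratio of the first to the second was -0.21, -0.15 and -0.06 on days 3, 5 and 7 with O(5R)SK, against -0.48, -0.44 and -0.48 with O(WT)SK, a difference of 0.33 (SD 0.0824 over 3 days). Of 18099 pairs of probe sets for 1 gene, 14.1% had ratios without overlap between the combinations, and 8.58% were also at least as far apart as the Klf4 pair. The ratio shows unequal change and not which probe set follows the gene. Day 7 exceeded day 3 by 0.29 on the first and 0.22 on the second, and neither passed (limma adjusted p = 0.237 and 0.321).

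**Figure D2:**
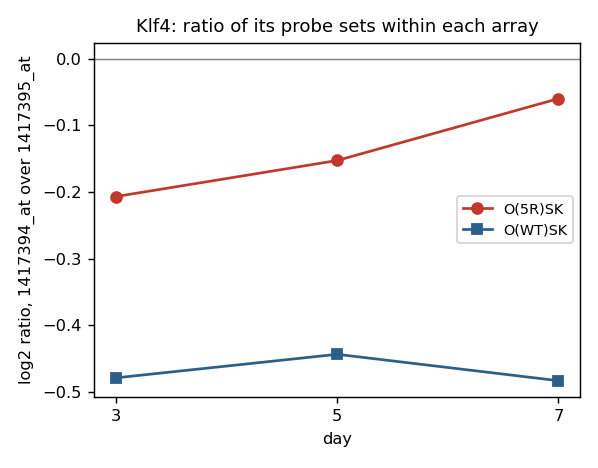
Log2 ratio of Klf4 probe set 1417394_at to 1417395_at within each array (y axis) by day (x axis), 1 array per point, with O(5R)SK as red circles and O(WT)SK as blue squares. The ratios lie between -0.21 and -0.06 with O(5R)SK and between -0.48 and -0.44 with O(WT)SK.

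Closest to the brighter Klf4 probe set, among 12889 of similar spread, were the autophagy gene Atg2a (r = 0.996), Gap43, which encodes a growth cone protein (r = 0.995), and Zc3h7b (r = 0.992). Gap43 read 607, 640 and 728 on days 3, 5 and 7 with O(5R)SK, against 629, 583 and 739 with O(WT)SK. This brighter probe set varied little over the arrays (SD 0.117 on the log2 scale), and the other Klf4 probe set, 1417394_at, varied more (SD 0.234).

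**Figure D3:**
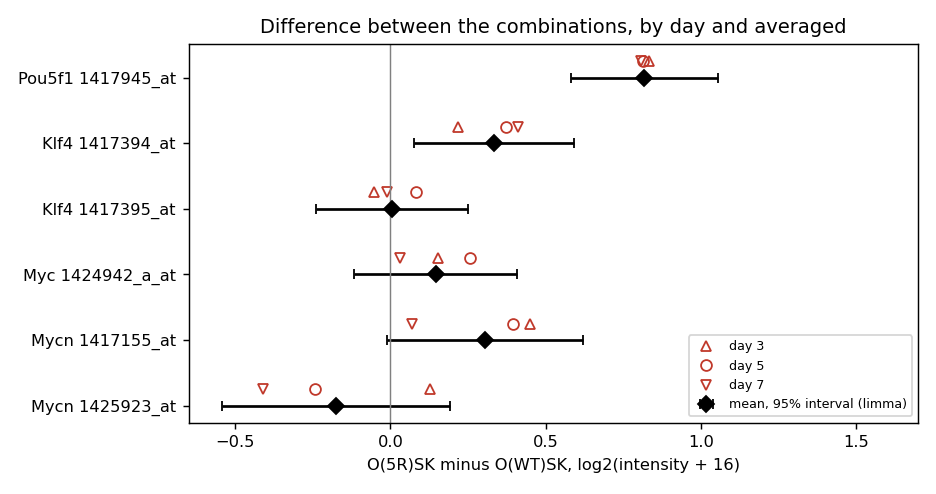
Difference O(5R)SK minus O(WT)SK in log2(intensity + 16) (x axis) for the 6 probe sets that passed the filter (rows). Open red symbols are single days, black diamonds the mean and bars limma's 95% interval. The days of Pou5f1 lie at 0.81 to 0.83, and those of Mycn 1425923_at run from 0.13 on day 3 to -0.41 on day 7.

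Myc was read at percentiles 90.0 to 92.3 of brightness. Its probe set (1424942_a_at) read 2337, 2062 and 1770 on days 3, 5 and 7 with O(5R)SK, against 2100, 1725 and 1734 with O(WT)SK. O(5R)SK was ahead on each day, by 0.15, 0.25 and 0.03, and the combinations overlapped. The mean difference was 0.15 (SE 0.0986, 95% interval -0.12 to 0.41, limma adjusted p = 0.702). Being ahead on each of the 3 days applied to 4 of the 6 tested members and to 16% of all probe sets.

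Day 7 was below day 3 for Myc in both combinations, by -0.40 with O(5R)SK and -0.27 with O(WT)SK. The mean was -0.34 (SE 0.121, 95% interval -0.66 to -0.02), with an unadjusted p of 0.0434 and a limma adjusted p of 0.196. It passed with the trended, robust prior (limma adjusted p = 0.0366), and over 8 settings with all arrays the adjusted p in limma reached up to 0.409. Myc was the 1 member of 6 that was lower in both combinations, as were 29.4% of all probe sets, and 4 of 6 were higher in both, as were 36.3%.

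For day 7 against day 3 limma called 0 of 6 members, and 2.43% of all probe sets, of which 1.65% were higher and 0.781% lower, with 23.9% at an unadjusted p under 0.05. For day 5 against day 3, day 7 against day 5 and the difference of slopes limma called 0 members and 0% of all, where 12.8%, 10.9% and 7.80% had an unadjusted p under 0.05.

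Most like Myc in course, among 17043 probe sets, were Arfgap1, which encodes a regulator of vesicle coats (r = 0.996), the formin gene Fmn1 (r = 0.993) and the ephrin gene Efnb1 (r = 0.992). Efnb1 read 863, 764 and 638 on days 3, 5 and 7 with O(5R)SK, against 762, 650 and 643 with O(WT)SK.

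Known MYC target genes were mostly lower on day 7 in value. Of 20 listed 19 were on the array and tested; 17 were negative and 2 positive for day 7 against day 3, with a median of -0.32 beside 0.04 over all tested probe sets. None passed in limma, and 9 had an unadjusted p under 0.05. The largest differences belonged to Srm, the spermidine synthase gene (-0.65, SE 0.149, limma adjusted p = 0.100), and to the nucleolar protein genes Nop56 (-0.63, SE 0.114, limma adjusted p = 0.0696), Nolc1 (-0.61, SE 0.113, limma adjusted p = 0.0716) and Nop58 (-0.60, SE 0.124, limma adjusted p = 0.0849).

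Nop56 read 3434, 2654 and 2107 on days 3, 5 and 7 with O(5R)SK, against 3317, 2647 and 2244 with O(WT)SK. Srm read 5809, 4731 and 3245 with O(5R)SK, against 5842, 4709 and 4221 with O(WT)SK. Both were ordered by day in each combination. Of the 19 targets 18 were lower on day 7 with O(5R)SK (median -0.31) and 16 with O(WT)SK (median -0.27), where 44.2% and 48.8% of all tested probe sets were lower.

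The count of negative targets was 16 to 19 over the alternatives, and 16 without the O(5R)SK day 7 array. Shifting arrays to a common median moved the median of all tested probe sets from 0.04 to -0.06 and that of the targets to -0.42. Limma called 9 targets lower with the trended, robust prior, 6 of 18 with the stricter filter, 5 with a pseudocount of 64 and 4 at gene level. For O(5R)SK against O(WT)SK 15 targets were negative and 4 positive, with a median of -0.05 beside -0.00 over all, and limma called 0, with 0 at an unadjusted p under 0.05.

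**Figure D4:**
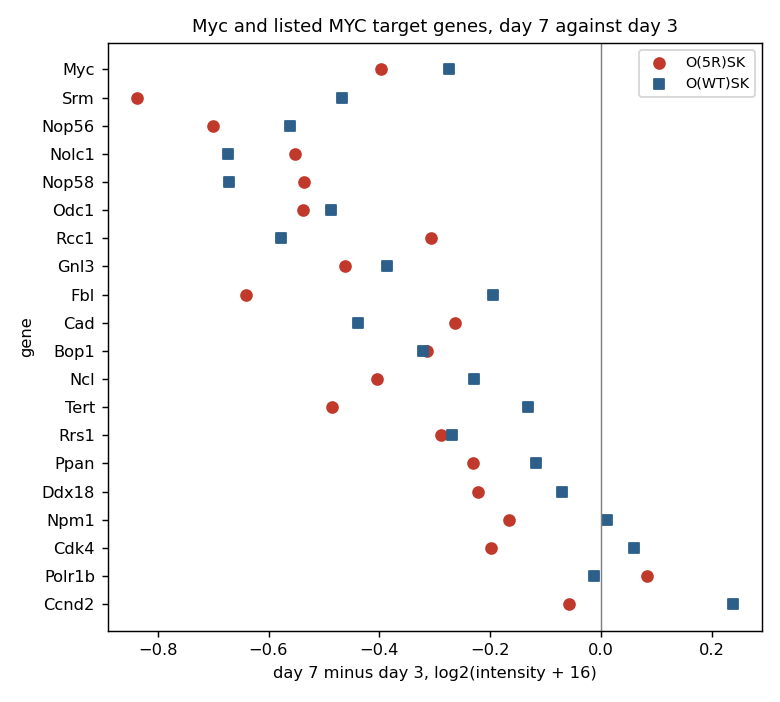
Day 7 minus day 3 in log2(intensity + 16) (x axis) for Myc (top row) and the 19 tested MYC target genes (rows below, ordered by the mean of both combinations), with O(5R)SK as red circles and O(WT)SK as blue squares, each from 1 array per day. Points lie left of 0 for 18 of 19 targets with O(5R)SK and 16 of 19 with O(WT)SK.

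In the MYC/MAX network of partners and antagonists 10 of 11 listed genes were tested. For day 7 against day 3 limma called 1 lower and 0 higher, where 0.781% and 1.65% of all probe sets were called. In value 7 were positive and 3 negative (median 0.09), with 5 at an unadjusted p under 0.05. The gene called lower was Mycl, which encodes the family member L-MYC. It read 471.5, 157 and 122 on days 3, 5 and 7 with O(5R)SK, against 444, 214 and 131 with O(WT)SK. The difference of day 7 against day 3 was -1.74 (SE 0.160, limma adjusted p = 0.0321, lower in both combinations). The call was lost with a pseudocount of 1 (limma adjusted p = 0.0525), without the filter (limma adjusted p = 0.172) and without any 1 array (limma adjusted p = 0.0511 to 0.197).

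Beside Mycl, all 6 macrophage markers were lower on day 7 in value (median -1.07). Limma called 1 of them, the lysozyme gene Lyz2 (-1.58, adjusted p = 0.0262), where 0.781% of all probe sets were called lower. The call of Lyz2 was lost with a pseudocount of 1, without the filter and without any 1 array. The summed intensity of the 6 markers was 7839, 4210 and 2832 on days 3, 5 and 7 with O(5R)SK, and 8350, 4657 and 3353 with O(WT)SK, with 0 of 6 at 0. Their part in the values of Mycl, Myc and the MYC targets was not tested. In bulk RNA fewer cells of a type and less RNA per cell cannot be told apart.

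Mxd1, Mxd4 and Mnt, whose proteins pair with MAX and repress E-box genes, were higher on day 7 in value without passing. Mxi1 was also higher in value, at 0.46 (limma adjusted p = 0.117). Such a rise was not seen for every listed network gene: Mlx was at 0.10, Mga at 0.07, Max at 0.03, Mlxip at -0.05 and Mxd3 at -0.12. Mxd1 read 85.2, 106 and 153 on days 3, 5 and 7 with O(5R)SK, against 62.5, 63.2 and 118 with O(WT)SK. Its difference of day 7 against day 3 was 0.76 (SE 0.131, limma adjusted p = 0.0657), that of Mxd4 0.66 (limma adjusted p = 0.0721) and that of Mnt 0.56 (limma adjusted p = 0.105). With the trended, robust prior Mxd1, Mxd4 and Mnt passed in limma (adjusted p = 0.0499, 0.00177 and 0.0144 in that order). Between the combinations 6 network genes were positive and 4 negative (median 0.04), with 0 called in limma and 1 at an unadjusted p under 0.05, and Mxd1 had the largest difference (0.44, SE 0.107, limma adjusted p = 0.535).

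Of 10 listed regulators of MYC turnover and transcription 8 were tested and 0 called by limma in either comparison, with 3 at an unadjusted p under 0.05 for day 7 against day 3 and 0 between the combinations. For day 7 against day 3 the kinase gene Aurka, known for stabilising N-MYC, was at -0.77 (limma adjusted p = 0.0546) and Skp2, a ubiquitin ligase subunit gene, at -0.61 (limma adjusted p = 0.100). The Wnt effector gene Tcf7l2 was at 0.35 and Fbxw7, whose protein marks MYC for degradation, at 0.33. Aurka passed under 5 of 14 alternatives.

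The 3 probe sets of Mycn disagreed in brightness and in direction. The first (1417155_at) read 149.6, 174 and 165 on days 3, 5 and 7 with O(5R)SK, against 105, 128 and 156 with O(WT)SK. The second (1425922_a_at) read 19.5, 2.99 and 25.01 with O(5R)SK, against 9.09, 50.6 and 20.2 with O(WT)SK, and did not pass the filter. The third (1425923_at) read 25211, 21642 and 20458 with O(5R)SK, against 23094, 25618 and 27183 with O(WT)SK. They sit at percentiles 58.6 to 64.4, 6.62 to 46.5 and 99.5 to 99.7 of brightness. Which of them follows the Mycn transcript cannot be told from these values, and probe sequences were not used here.

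The first was higher with O(5R)SK by 0.45, 0.40 and 0.07 on days 3, 5 and 7, and its combinations overlapped (mean 0.305, SE 0.119, 95% interval -0.01 to 0.62, limma adjusted p = 0.590). The third differed by 0.13, -0.24 and -0.41 (mean -0.18, SE 0.138, 95% interval -0.54 to 0.19, limma adjusted p = 0.731). That mean was -0.051 after quantile normalization, -0.327 without either day 3 array and -0.058 without either day 7 array. Between day 3 and day 7 the third moved by -0.30 with O(5R)SK and 0.24 with O(WT)SK, a pattern of signs shared by 14.8% of all tested probe sets. Its slopes differed by -0.54 per 4 days (SE 0.202, 95% interval -1.09 to 0.01, limma adjusted p = 0.638).

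The bright end of the arrays moved beside this probe set. The 364 bright probe sets had a median change of day 7 against day 3 of -0.28 with O(5R)SK and 0.01 with O(WT)SK. The slope difference of the third probe set was -0.26 after quantile normalization and -0.66 with a common median of the arrays.

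**Figure D5:**
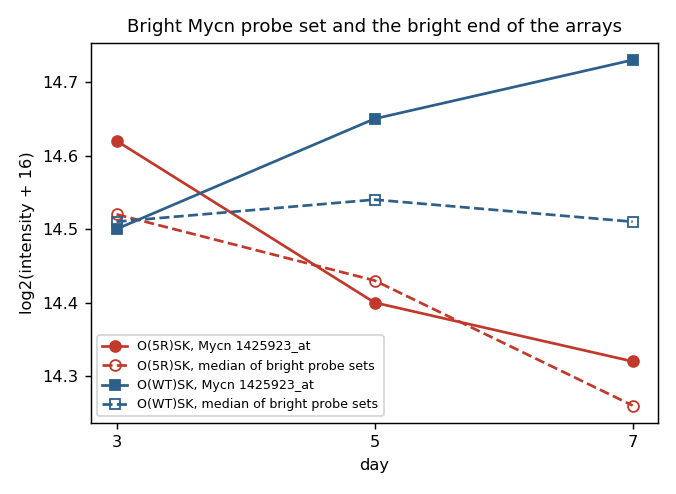
Log2(intensity + 16) (y axis) by day (x axis) of Mycn probe set 1425923_at (solid lines) and of the median of 364 bright probe sets (dashed lines), 1 array per point, with O(5R)SK in red and O(WT)SK in blue. On day 7 Mycn reads 14.32 with O(5R)SK and 14.73 with O(WT)SK, and the bright median reads 14.26 with O(5R)SK and 14.51 with O(WT)SK.

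Most like the third probe set, among 16088, were Adss, an enzyme gene of purine synthesis (r = 0.985), the sorting nexin gene Snx9 (r = 0.983) and the cortactin gene Cttn (r = 0.983). Cttn read 17811, 15766 and 15358 on days 3, 5 and 7 with O(5R)SK, against 16702, 17484 and 18073 with O(WT)SK.

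Of 14 listed targets of OCT4 and SOX2, all on the array, 9 passed the filter and were tested, Fbxo15 and Utf1 only through their brighter arrays. Between the combinations 3 of the 9 were positive and 6 negative (median -0.02), with 0 called in limma and 1, Fbxo15, at an unadjusted p under 0.05. Fbxo15, an F-box gene of embryonic stem cells, read 37.4, 88.4 and 349 on days 3, 5 and 7 with O(5R)SK, against 3.96, 28.3 and 53.4 with O(WT)SK. Its mean on the log2 scale was 6.99 with O(5R)SK and 5.30 with O(WT)SK, the second under the filter of 5.63, so its difference follows in part from its selection and depends on the added 16 (1.04 with a pseudocount of 64 and 2.42 with 1). The growth factor gene Fgf4 differed by 0.26, and by 0.111 to 0.461 when 1 array was left out. The chromatin gene Utf1, with means of 5.39 with O(5R)SK and 5.88 with O(WT)SK, differed by -0.49, and by -0.846 to -0.163 when 1 array was left out.

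For day 7 against day 3 limma called 2 of the 9 higher and 0 lower, where 1.65% and 0.781% of all probe sets were called. In value 7 were positive and 2 negative (median 0.64), with 4 at an unadjusted p under 0.05. Utf1, with a day 3 mean of 4.67 under the filter, was at 1.78 and was not called (limma adjusted p = 0.0761). The called genes were Fgf4 and Fbxo15. Fgf4 read 93.3, 254 and 416 on days 3, 5 and 7 with O(5R)SK, against 106, 192 and 280 with O(WT)SK, and rose by 1.63 (SE 0.203, limma adjusted p = 0.0428). Fbxo15 had a mean of 7.32 on day 7 and of 5.03 on day 3. It entered the test only through its later values, so its call is no support for a change. Both calls were lost with a pseudocount of 1, without the filter and without any 1 array. In all, the Fgf4 call was lost under 8 of 14 alternatives and the Fbxo15 call under 9 of 13.

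Of 13 other POU family genes 9 were on the array, 3 passed the filter and 0 were called in limma, with 1 at an unadjusted p under 0.05 for day 7 against day 3 and 0 between the combinations. Pou6f1 read 593, 766 and 816 on days 3, 5 and 7 with O(5R)SK, against 607, 640 and 765 with O(WT)SK (day 7 against day 3 0.39, SE 0.128, limma adjusted p = 0.174). Pou2f3 passed through its brighter arrays, with a day 3 mean of 5.43 on the log2 scale, and read 7.01, 34.1 and 93.6 with O(5R)SK and 64.5, 52.3 and 72.9 with O(WT)SK. Pou3f3 stayed between 90.9 and 98.5 with O(5R)SK and between 88.1 and 104 with O(WT)SK.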

How the data were processed

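Trizol RNA was labelled as biotin cRNA and hybridised, per the labels' protocols. The authors' deposited values are linear intensities by probe set, made with affy per the submitters' processing notes (version and summary method not given in the sources used here). Every array has a 2% trimmed mean of 500 and its own quantiles. Precision is limited by having 6 arrays.

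The platform annotation gives 34958 of 45101 probe sets 1 gene, 932 several and 9211 none. RefSeq promoter windows (GRCm38.p6) were found for 4 of the 5 genes. Probe sets were kept apart and 64 controls left out. Values were taken as log2(intensity + 16), which understates fold changes of dim genes. The 27002 probe sets with a mean above the 40th percentile (log2 5.63, an intensity of 33.5) were tested across the array with limma 3.58.1 (R 4.3.3), with combination and day as terms, 2 residual degrees of freedom and a prior of 2.52. Slopes came from a fit with day as a number. P-values were Benjamini-Hochberg adjusted over all tested probe sets, with a threshold of 0.05. Single-day and single-combination differences have no test. A listed gene is read on its brightest probe set.

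Named genes were all members, the 3 genes with the highest correlation to each member's brightest probe set among those of similar spread, and up to 4 per list, by the threshold and then by size; Nanog, Lyz2, Cdh1 and the other markers were added after their values were seen. Alternatives changed the pseudocount (1, 64), scaling, filter, prior, day term and gene level, and left out each array; the MYC target counts under them were added after seeing the data. The fits were tested on simulated data, with noise drawn from limma's own fitted prior and no day effect, so the noise model itself was not tested. Limma called 20.9% of simulated log2 differences of 1 between the combinations, 82.6% of those of 2 and 96.5% of those of 4. Figures came from matplotlib 3.10.9 in Python 3.11.15. The members and lists were chosen with earlier results of these data known.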

Additional observations from a re-analysis of the deposited data

Results flagged for a closer look

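The bright Mycn probe set (1425923_at) moved in opposite directions between day 3 and day 7, by -0.30 with O(5R)SK and by 0.24 with O(WT)SK, a difference of -0.536 in log2(intensity + 16). Each direction rests on 2 arrays, and the difference of slopes did not pass (limma adjusted p = 0.638, and 0.154 to 0.943 over its alternatives). The bright end of the arrays moved the same way with O(5R)SK, by -0.28, and its part in this value was not tested. The difference was -0.26 after quantile normalization and -0.66 with a common median of the arrays.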

How the results depend on the processing

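The labels number no replicates, and the combinations were matched by day, with day as a term of the fit. Without the day term the difference of Pou5f1 had a limma adjusted p of 0.701. For O(5R)SK against O(WT)SK the count of 0 calls became 2 with the stricter filter and 55 with the trended, robust prior. For day 7 against day 3 the 657 calls became 0 with a pseudocount of 1, 2228 with 64, 0 without the filter, 2902 with the stricter filter, 3995 with the trended prior, 1287 at gene level and 0 to 64 without 1 array. For day 5 against day 3 the 0 calls became 39 with a pseudocount of 64, 232 with the stricter filter and 638 with the trended prior, for day 7 against day 5 5 and 351 with the last 2 of these, and for the slopes 3 with the trended prior. The 2100, 2302 and 3349 probe sets at least 1.5-fold apart on days 3, 5 and 7 were 578, 739 and 1539 with a pseudocount of 64. On day 7 the split of 2526 higher and 823 lower with O(5R)SK was 1773 and 1523 with a common median and 1991 and 1169 after quantile normalization.

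Signs turned for members that did not pass, and the causes were not tested. With a common median they turned for Klf4 1417395_at between combinations (-0.0300) and in slope (-0.0854) and for Mycn 1425923_at from day 5 to 7 (-0.0610). Quantile normalization turned Mycn 1425923_at for day 7 against day 3 (0.0834), Pou5f1 for day 5 against day 3 (0.0177) and in slope (0.0347), and Klf4 1417395_at for day 5 against day 3 (0.0121). Without 1 array, Klf4 1417395_at ran from -0.0332 to 0.0344 between combinations, where leaving out an array also drops its day. For day 7 against day 3 Mycn 1425923_at ran from -0.2595 to 0.193. For day 5 against day 3 Pou5f1 ran from -0.0180 to 0.00323, Klf4 1417394_at from -0.0463 to 0.127, Klf4 1417395_at from -0.0613 to 0.0528 and Mycn 1425923_at from -0.262 to 0.191. For day 7 against day 5 Mycn 1417155_at ran from -0.0851 to 0.268 and Mycn 1425923_at from -0.1735 to 0.178. In slope Pou5f1 ran from -0.289 to 0.239, Klf4 1417394_at from -0.0715 to 0.458, Klf4 1417395_at from -0.298 to 0.382 and Myc from -0.412 to 0.166.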

Other observations

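Keratinocyte and epithelial markers, which share a tissue with Klf4, summed to 740.0, 888 and 1467 on days 3, 5 and 7 with O(5R)SK, and to 743, 934 and 1053 with O(WT)SK. All 6 were tested, 4 were positive for day 7 against day 3 (median 0.48) and limma called 0, with 2 at an unadjusted p under 0.05. Cdh1, the E-cadherin gene, read 133, 256 and 665 with O(5R)SK, against 102, 170.1 and 252 with O(WT)SK (1.69, SE 0.273, limma adjusted p = 0.0598). The 2 negative ones were the keratinocyte keratin genes Krt14 (-0.34, limma adjusted p = 0.370) and Krt5 (-0.08, limma adjusted p = 0.712). Krt14 read 216, 249.3 and 129.8 with O(5R)SK, against 261, 309.7 and 257 with O(WT)SK. Between the combinations Krt14 differed by -0.49 (limma adjusted p = 0.568) and Cdh1 by 0.74 (limma adjusted p = 0.546). There 2 of the 6 were positive and 4 negative (median -0.03), with 0 called in limma and 2 at an unadjusted p under 0.05.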
